A study of Mus musculus with 4 samples.

Results

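Imprinted genes are expressed mainly from the copy inherited from 1 parent. The 40 imprinted genes described here were chosen by name, with earlier results of these data known. They were looked up by symbol in the gene list of each library. All 40 were found, among the 29652 genes that any complete list held. They comprise 34 protein-coding genes and 6 long non-coding RNAs at 18 clusters or single loci. Per the labels, the libraries are single-cell RNA sequencing of EpCAM-labelled, flow-sorted cells of fetal mouse pancreas on the C57BL/6 background. The groups are E15.5 KO and E13.5 KO, both PdxcreSetd2 f/f, and E15.5 WT and E13.5 WT, both Setd2 f/f, with 1 library each, so controls carry the same floxed Setd2 alleles without the Cre recombinase. Pdx-Cre acts in cells that express, or descend from cells that expressed, the pancreatic factor Pdx1, so other cells in the sort would keep Setd2. The number of embryos pooled for a library is not known here.

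The data used here say only whether a gene is listed in a library, with no level. The lists held 25474 genes in E15.5 KO, 26341 in E13.5 KO and 25463 in E13.5 WT. That of E15.5 WT stops after 167 complete entries and was compared only over the identifiers up to its last entry. Depth is unknown, no test was possible with 1 library per group, and a gene that is listed in both of 2 libraries may still differ in level or in the parental copy used. Setd2, which encodes the methyltransferase of histone H3 lysine 36 trimethylation, was listed in all 3 complete lists, which does not check the deletion. All 12 markers of pancreatic epithelium were in every complete list, and so were the markers of mesenchyme (5 of 5), erythroid cells (4 of 4), immune cells (2 of 2) and liver (2 of 2). Of the endothelial markers 2 of 3 were in E15.5 KO, against 3 of 3 in both E13.5 libraries, and the neural crest and glia markers gave the same counts. The parts of these other cells in the listing of imprinted genes were not tested.

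As background, imprinted genes sit in clusters that share a differentially methylated control region, inherited methylated from the mother or from the father. Many act on fetal growth: paternally expressed genes such as Igf2 tend to promote it and maternally expressed genes such as Cdkn1c, H19 and Grb10 tend to restrain it. Clusters often pair coding genes with a long non-coding RNA from the other parental copy, and several carry microRNA (miRNA) and small nucleolar RNA (snoRNA) genes. In the pancreas, CDKN1C is known in human for its loss in overgrowing islet cells, and Dlk1, Meg3 and Nnat are known from endocrine cells.

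None of the 40 members was gained or lost in any comparison that the lists allow. E15.5 KO listed 40 of 40, E13.5 KO 40 of 40 and E13.5 WT 40 of 40. In E15.5 KO against E13.5 KO, 0 of the 40 were in 1 list only, against 17.8% of all genes listed in either library. In E13.5 KO against E13.5 WT the count was also 0 of 40, against 16.3% of all genes. Because the members were chosen with earlier results of these data known, these counts are a description and no test. Protein-coding genes differ less often between lists, with 7.57% between the KO ages and 6.08% between the genotypes, so 34 coding genes with no difference lie nearer to the background of their type than to that of all genes. For the 6 non-coding members the background was higher, at 34.4% of non-coding genes between the KO ages and 33.5% between the genotypes at E13.5. The identifiers covered by E15.5 WT include 1 member, H19 (ENSMUSG00000000031), found in both the KO and the WT list at E15.5, while 4.65% of the genes of that stretch were in only 1 of those 2 lists.

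**Figure D1:**
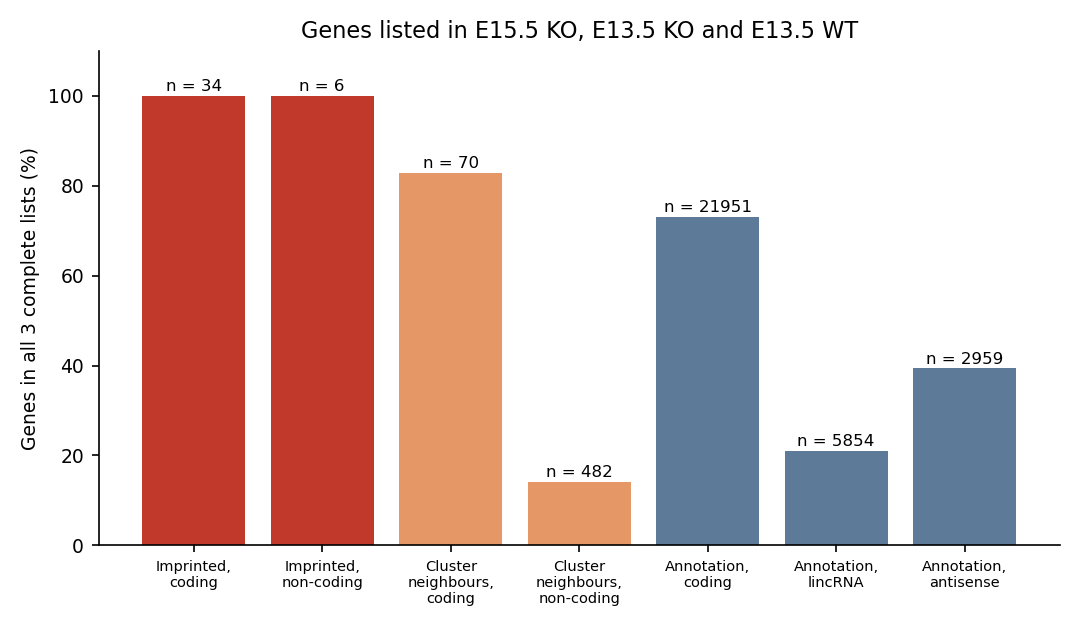
Percentage of genes found in all 3 complete lists (vertical axis, with the number of genes above each bar), for the imprinted genes, for their cluster neighbours and for annotated genes of 3 types. Both imprinted groups stand at 100%, coding neighbours at 82.9% and non-coding neighbours at 14.1%, and annotated coding genes at 73.1%. The imprinted genes were chosen with earlier results of these data known.

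Growth regulators of the insulin-like growth factor system were listed in each complete library. Igf2 (ENSMUSG00000048583, chromosome 7, 142650766 to 142666816, GRCm38) encodes the paternally expressed fetal growth factor, and Igf2r (chromosome 17, 12682406 to 12769664) the maternally expressed receptor that takes it up for degradation. Grb10 (chromosome 11, 11930508 to 12038683), an adaptor that damps insulin and growth factor receptor signalling, and Plagl1 (chromosome 10, 13060504 to 13131694), a zinc finger transcription factor, were listed beside them. Cdkn1c (chromosome 7, 143458339 to 143461050), the cyclin-dependent kinase inhibitor p57, and Phlda2, a pleckstrin homology protein that limits placental growth, lie in the same region of chromosome 7 as Igf2 and H19. That region runs 928 kb from H19 to Phlda2 and holds 8 members, and 8 of 8 were in E15.5 KO, in E13.5 KO and in E13.5 WT. They include Ascl2, a transcription factor of trophoblast and intestinal stem cells, the tetraspanin Cd81, and Tssc4.

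The 6 long non-coding RNAs were also listed in every complete library, among them Kcnq1ot1 and Airn, which are known to silence their neighbours. Kcnq1ot1 (chromosome 7, 143203458 to 143296549) is transcribed from the paternal copy across part of Kcnq1, and Airn (chromosome 17, 12741311 to 12860136) from the paternal copy across the start of Igf2r. Both overlap a listed gene on the opposite strand. H19, Meg3, Rian and Mirg, which are maternally expressed, complete the 6. Among annotated genes of the same types, 21.0% of long intergenic RNAs (lincRNA), 39.4% of antisense RNAs and 55.7% of processed transcripts were in all 3 lists. The non-coding members cover a median of 12700 exonic bases (2460 to 93092), counted over all annotated transcripts of a gene together.

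Paternally expressed genes numbered 24 and maternally expressed genes 15, by textbook assignment, and 24 of 24 and 15 of 15 were in each complete list. Gnas, which encodes the stimulatory G protein subunit and whose parental copy depends on the promoter, was listed likewise. The 8 members whose imprinting is known mainly from placenta or single tissues (Ascl2, Ano1, Asb4, Ddc, Tssc4, Cd81, Inpp5f and Ube3a) were listed as completely as the other 32. Ano1 encodes a calcium-activated chloride channel, Ddc the decarboxylase that makes dopamine and serotonin, Inpp5f a phosphoinositide phosphatase, Asb4 a substrate receptor of a ubiquitin ligase and Ube3a a ubiquitin ligase. Listing carries no allele, and on 1 inbred background no parental difference could be read, so imprinting itself was not checked.

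The Peg3 and Peg10 clusters each hold a head-to-head pair. Peg3 (chromosome 7, 6703892 to 6730431), a zinc finger protein, and Usp29 (chromosome 7, 6730578 to 6967219), a ubiquitin protease family member, start 147 bases apart on opposite strands. Sgce (chromosome 6, 4674350 to 4747207), epsilon-sarcoglycan, and Peg10 (chromosome 6, 4747306 to 4760517), a protein derived from a retrotransposon, start 99 bases apart. All 4 genes were in E15.5 KO, E13.5 KO and E13.5 WT, as was Zim1, the zinc finger gene next to Peg3 that is expressed from the maternal copy. The Peg3 start window, from 250 bases before to 50 after the start, is shown because the annotated starts of both genes lie in it (RefSeq, GRCm38.p6, chr7:6730370-6730669, minus strand, 5′ to 3′, with each CG dinucleotide, the site of DNA methylation, in capitals).
Peg3: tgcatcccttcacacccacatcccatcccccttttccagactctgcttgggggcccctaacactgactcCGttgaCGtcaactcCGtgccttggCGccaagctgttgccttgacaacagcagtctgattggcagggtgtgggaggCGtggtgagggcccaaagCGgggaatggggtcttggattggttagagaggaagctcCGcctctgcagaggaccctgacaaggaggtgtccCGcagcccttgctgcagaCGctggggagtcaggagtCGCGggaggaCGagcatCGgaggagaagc
It holds 13 CG dinucleotides in 300 bases. Start windows of the same length were found for 34 of the 40 members, with 50 windows in all and a median of 13 CG. The median was 18 over 15635 windows of coding genes in all 3 lists and 7 over all 32817 windows. The hexamer TGCCGC, the sequence that the imprint-protecting factor Zfp57 recognises when methylated, was present on either strand in 22.0% of member windows, in 17.4% of windows of coding genes in all 3 lists and in 11.6% of all windows. The Peg3 window does not hold these letters on either strand. Some genes contribute several windows, which can overlap.

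Single-exon copies and nested genes among the members need care, since the deposited lists do not say how reads over 2 genes were assigned. Of the 40 members, 23 overlap another listed gene longer than 200 bases, 9 of them on the same strand and 14 only on the opposite strand. Mcts2 (chromosome 2, 152687035 to 152687946) is a retrogene inside H13 on the same strand. Nap1l5 lies inside Herc3, Zrsr1 inside Commd1 and Nnat inside Blcap, in each case on the opposite strand, and all of these hosts were listed in every complete library. Igf2 overlaps AC013548.1, a protein-coding locus on its own strand that was in E13.5 KO and E13.5 WT and not in E15.5 KO. Snrpn, the neuronal splicing protein gene, overlaps Gm38393, which was listed in E15.5 KO, E13.5 KO, E13.5 WT and E15.5 WT. Snurf, the upstream reading frame of the Snrpn transcript, has its own identifier and was in no complete list.

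The genes around the members were counted over each cluster, from its first to its last member with 100 kb on each side. These neighbourhoods hold 552 other annotated genes, of which 148 were in E15.5 KO, 162 in E13.5 KO and 156 in E13.5 WT. Coding neighbours were listed in all 3 libraries in 58 of 70 cases (82.9%, against 73.1% of annotated coding genes). Non-coding neighbours were in all 3 in 68 of 482 cases (14.1%, against 18.3% of annotated non-coding genes). The 8 coding neighbours in no list were Mrgprh, Olfr1350, Snurf, Zc2hc1b, Gm28048, Defb45, Defb36 and Fgf4, which include an olfactory receptor, a pair of defensins and a fibroblast growth factor.

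**Figure D2:**
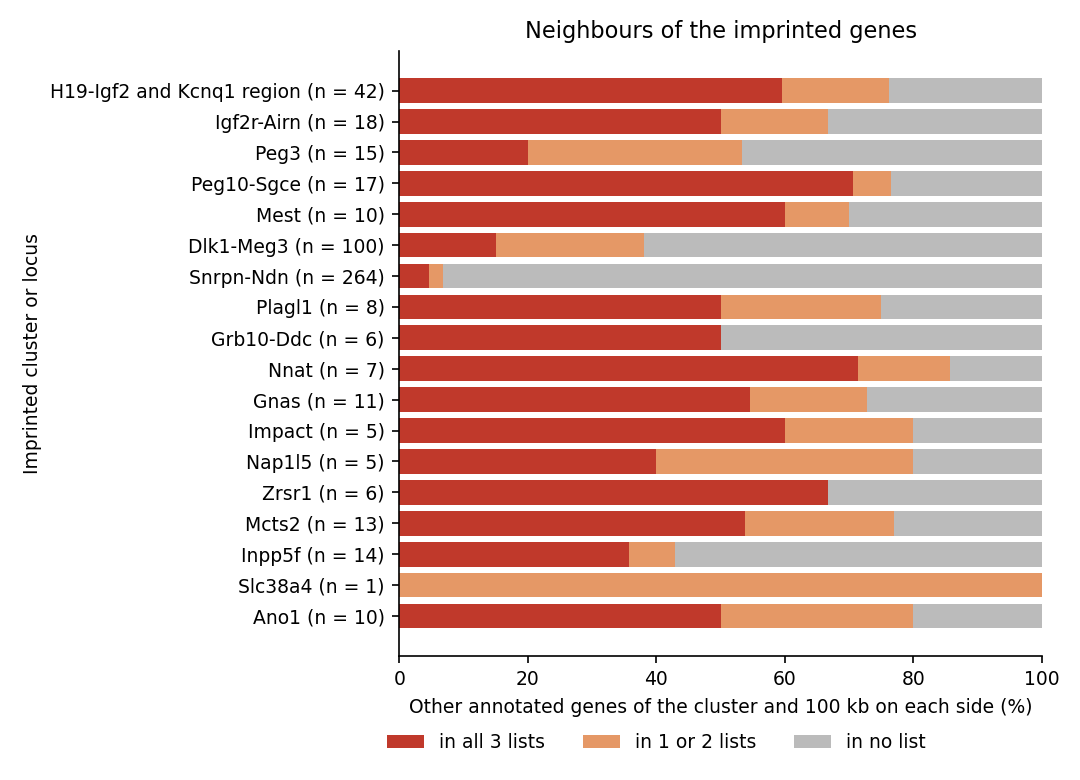
Share of the other annotated genes in each imprinted cluster or locus, widened by 100 kb on each side (horizontal axis, percent, with the number of genes in brackets), that were in all 3, in 1 or 2, or in none of the complete lists. The Snrpn-Ndn region, with 246 of 264 genes in no list, and the Dlk1-Meg3 region, with 62 of 100, hold most of the unlisted genes.

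Few coding neighbours differed between libraries. Between the KO ages, 4 of 62 coding neighbours were in 1 list only (6.45%, against 7.57% of all coding genes), and all 4 were in E13.5 KO and not in E15.5 KO, a direction that 5.03% of coding genes took. They were AC013548.1, Hrh4, a histamine receptor gene near Impact, Aurkc, an aurora kinase of meiosis near Usp29, and Defb25, a beta-defensin near Mcts2. Between the genotypes at E13.5, 1 of 62 differed (1.61%, against 6.08%), and that was Hrh4, in E13.5 KO and not in E13.5 WT, as were 3.17% of coding genes. Non-coding neighbours differed in 36 of 113 cases between the KO ages (31.9%) and in 39 of 117 between the genotypes (33.3%), close to the backgrounds of 34.4% and 33.5%. Of the 117, the KO list alone held 22 (18.8%, against 20.7% of all non-coding genes) and the WT list alone 17 (14.5%, against 12.8%). Of the 113, E15.5 KO alone held 13 (11.5%, against 15.2%) and E13.5 KO alone 23 (20.4%, against 19.2%).

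The longest non-coding neighbours that differed were unnamed or little-known loci. A230006K03Rik (chromosome 7, 61127996 to 61311721), a lincRNA in the Snrpn-Ndn region, was in E13.5 KO alone. Gm32061, a lincRNA whose span covers Ndn, Magel2 and Mkrn3, and Gm32884, near Inpp5f, were in E13.5 KO and E13.5 WT and not in E15.5 KO, and the same held for Gm34964 near Ano1 and Gm44586 inside Usp29. Gm39117, between Igf2 and Ascl2, was in E15.5 KO and E13.5 WT and not in E13.5 KO. Nctc1 (chromosome 7, 142544609 to 142558596), a non-coding transcript beside H19 that was first described from muscle, and Gm45060 near Nap1l5 were in E15.5 KO and E13.5 KO and not in E13.5 WT. Gm47691 near Plagl1, Gm44587 inside Usp29 and Gm10152 near Ano1 were in E13.5 WT alone, and Gm44742 and Gm18908 of the Snrpn-Ndn region, the second a pseudogene on the strand opposite to Snrpn, were in E13.5 KO alone.

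**Figure D3:**
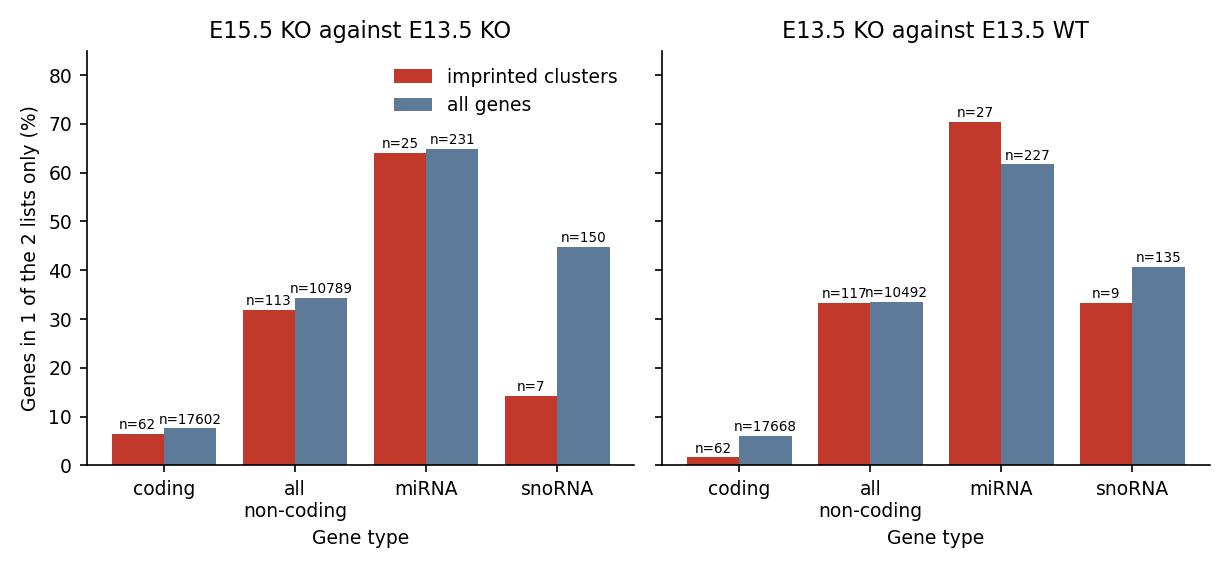
Percentage of genes listed in only 1 of 2 libraries (vertical axis, over the n genes listed in either), by gene type, for neighbours in the imprinted clusters and for all genes, in E15.5 KO against E13.5 KO (left) and E13.5 KO against E13.5 WT (right). Coding neighbours differed in 6.45% and 1.61% of cases and miRNA neighbours in 64.0% and 70.4%, beside backgrounds of 64.9% and 61.7% for miRNA genes.

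The Dlk1-Meg3 cluster on chromosome 12 (109452823 to 109749460) held the highest number of neighbours in 1 or 2 lists, 23, among 100 neighbours. In some smaller neighbourhoods the share was higher, with 5 of 15 around Peg3 and 3 of 10 around Ano1. Its 5 members are Dlk1, a membrane protein related to Notch ligands, Rtl1, a gene derived from a retrotransposon, and the maternally expressed RNAs Meg3, Rian, a host of snoRNAs, and Mirg, a host of miRNAs. All 5 were in E15.5 KO, E13.5 KO and E13.5 WT, yet of the 66 miRNA genes in the neighbourhood 11 were in E15.5 KO, 14 in E13.5 KO and 11 in E13.5 WT. In all, 24 of the 66 (36.4%) were in any list, against 12.9% of annotated miRNA genes, and 3 (4.55%) were in all 3, against 3.04%. A listed miRNA gene is the short gene model of the hairpin, and its listing is no measure of the mature miRNA. How such a gene came to be listed is not known here.

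The 3 miRNA genes that every complete library listed were Mir337 (chr12:109585789-109585885, plus strand, GRCm38), Mir433 (chr12:109591715-109591838, plus strand, GRCm38) and Mir127 (chr12:109592846-109592915, plus strand, GRCm38), whose hairpins lie 44.8, 50.7 and 51.8 kb after the start of Meg3. Mir433 and Mir127 are on the strand opposite to Rtl1, and these antisense miRNAs are known to cut the Rtl1 transcript. Mir431, from the same antisense group, was in E13.5 KO and E13.5 WT and not in E15.5 KO, and Mir136 was in E15.5 KO and E13.5 WT and not in E13.5 KO, while Mir434 and Mir432 were in none. Their mature sequences (RefSeq, GRCm38.p6, 5′ to 3′, seed of bases 2 to 8 in capitals) are shown for the genes in all 3 lists.
mmu-miR-337-5p: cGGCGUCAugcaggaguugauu
mmu-miR-337-3p: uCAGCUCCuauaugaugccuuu
mmu-miR-433-5p: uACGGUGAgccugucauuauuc
mmu-miR-433-3p: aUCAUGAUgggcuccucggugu
mmu-miR-127-5p: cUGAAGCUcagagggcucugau
mmu-miR-127-3p: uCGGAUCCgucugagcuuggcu
No seed is shared among these 6, nor with a miRNA of another gene in the neighbourhoods. Among the 144 mature sequences found for 76 of the 97 miRNA genes of all neighbourhoods there were 119 seeds, of which 15 were shared by several genes.

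Of the other miRNA genes of this cluster, 42 were in no complete list and 21 in 1 or 2. Between the genotypes at E13.5, 15 of 20 differed (75.0%), beside 61.7% of all miRNA genes listed in either library. Of the 20, the KO list alone held 9 (45.0%, against 33.5% of all miRNA genes) and the WT list alone 6 (against 28.2%). Between the KO ages, 13 of 19 differed (68.4%, against 64.9%). Of the 19, E15.5 KO alone held 5 (26.3%, against 29.4%) and E13.5 KO alone 8 (42.1%, against 35.5%). Genes in both KO lists and not in E13.5 WT were Mir667 (chr12:109720006-109720097, plus strand, GRCm38), Mir300 (chr12:109724313-109724391, plus strand, GRCm38) and Mir453 (chr12:109735619-109735700, plus strand, GRCm38). Genes in E13.5 WT alone were Mir540, Mir370, Mir495, Mir154 and Mir412. More genes, 6, were in E13.5 KO alone: Mir673, Mir341, Gm23912, Mir379, Mir376c and Mir541. In E15.5 KO alone were Mir3070b, Mir323, Mir666 and Mir382. Mir493, like Mir431, was in both E13.5 lists and not in E15.5 KO. The share of all miRNA genes with each of these patterns was not computed, and whether a pattern follows genotype was not tested. The mature forms of Mir667, Mir300 and Mir453 are shown to set them beside those above, marked in the same way.
mmu-miR-667-5p: cGGUGCUGguggagcagugagcacg
mmu-miR-667-3p: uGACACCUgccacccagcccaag
mmu-miR-300-5p: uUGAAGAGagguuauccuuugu
mmu-miR-300-3p: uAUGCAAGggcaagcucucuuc
mmu-miR-453: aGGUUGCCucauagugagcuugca
The seed of miR-453, GGUUGCC, recurs in miR-496a-5p, whose gene Mir496a was in no list.

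**Figure D4:**
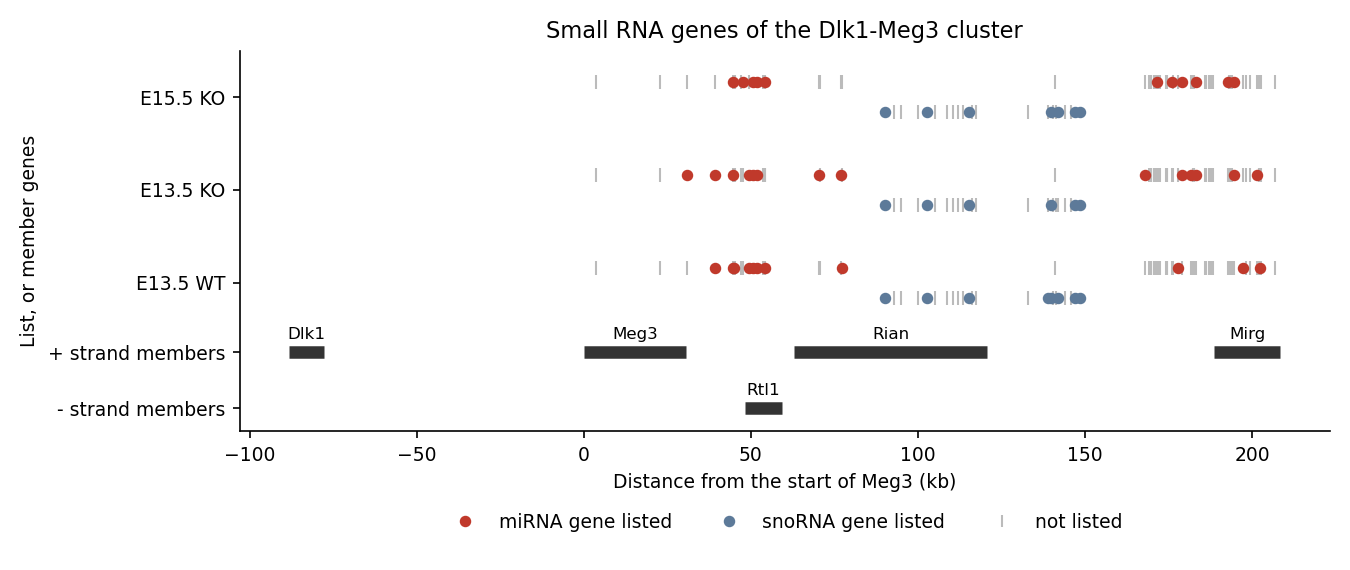
Small RNA genes of the Dlk1-Meg3 cluster by distance from the start of Meg3 (horizontal axis, kb). Red points are listed miRNA genes, blue points listed snoRNA genes and grey ticks unlisted ones, in a row for each complete list, with the 5 member genes below by strand. The same 6 snoRNA genes carry a point in every row, while most miRNA points change between rows.

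Most snoRNA genes of this cluster were in all 3 lists or in none, as were most annotated snoRNA genes. Of 1507 annotated snoRNA genes, 70 were in all 3 and 1346 in none. Of 23, the lists held 7 in E15.5 KO, 6 in E13.5 KO and 8 in E13.5 WT, and 6 were in all 3 (Gm24564, Gm23600, DQ267102, Gm23736, Gm22205 and Gm25224). These 6 are 26.1% of the 23, against 4.64% of annotated snoRNA genes. Of the 8 in any list, the other 2 were Gm25856, in E15.5 KO and E13.5 WT, and AF357428, in E13.5 WT alone. Over all neighbourhoods, 1 of 7 snoRNA genes differed between the KO ages (44.7% of all snoRNA genes did) and 3 of 9 between the genotypes at E13.5 (40.7%). In the Snrpn-Ndn region on chromosome 7 (59228750 to 62464510), by contrast, 0 of 210 snoRNA genes were in any complete list, against 10.7% of annotated snoRNA genes. The region is the mouse counterpart of the human Prader-Willi and Angelman syndrome locus, and 208 of these genes lie within Snhg14, the long host transcript, which was itself in E15.5 KO, E13.5 KO and E13.5 WT. Many are known as tandem copies of a few related snoRNAs, so their listing as single genes is uncertain, and how the processing treated reads that match several copies was not tested. Outside the imprinted clusters, 46.2% of the 247 intronic snoRNA genes in a long gene of all 3 lists were listed in any library. The 6 members of the region, among them the MAGE family genes Ndn and Magel2, the ring finger gene Mkrn3 and Peg12, were listed in every complete library.

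Small RNA genes were also grouped by where they lie relative to the exons of longer genes. In the imprinted clusters, 0 of 24 miRNA and snoRNA genes wholly inside an exon of a longer gene on the same strand were in any complete list. They include Mir675 in H19, Mir770 in Meg3, Mir134, Mir485, Mir377 and Mir410 in Mirg, and 8 snoRNA genes in exons of Rian. Of the 4 snoRNA genes in introns of Rian, Gm24564, Gm23600 and DQ267102 were in all 3 lists and Gm25357 was in none. Inside introns 15 of 237 small RNA genes of the clusters were in a list (6.33%), made up of 11 of 25 miRNA genes (44.0%) and 4 of 212 snoRNA genes (1.89%), most of these from the Snrpn-Ndn region. Outside long genes 20 of 59 were in a list (33.9%), and on the strand opposite to a longer gene 4 of 7 (57.1%). Away from the clusters 9 of 377 exonic small RNA genes were in a list (2.39%), 227 of 1090 intronic ones (20.8%), 70 of 537 on the opposite strand (13%) and 85 of 1268 outside long genes (6.7%). The exonic share was the lowest both in the clusters and away from them, while the order of the other places differed. This placement was examined after the listings had been seen, and the cause was not tested. The transcripts that hold Mir675 and Mir410, H19 and Mirg, were themselves in all 3 lists.

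**Figure D5:**
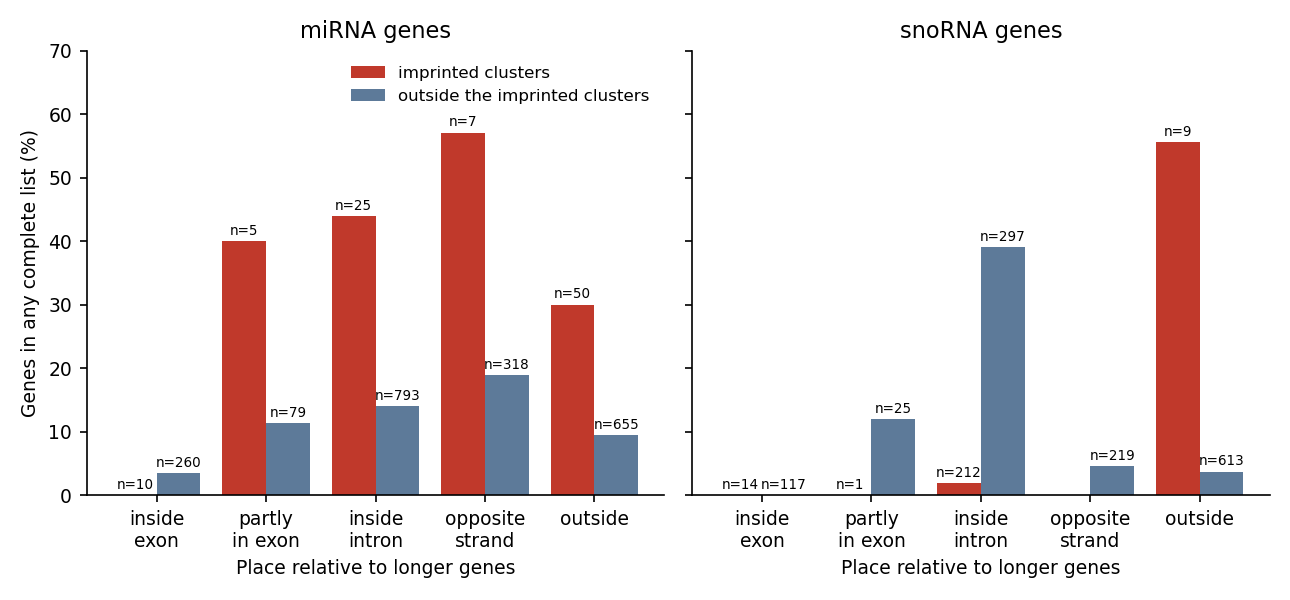
Percentage of miRNA genes (left) and snoRNA genes (right) in any complete list (vertical axis, n above each bar) by their place relative to longer genes, inside the imprinted clusters and outside them. Exonic small RNA genes are at 0% in the clusters, and the 212 intronic snoRNA genes of the clusters, nearly all from the Snrpn-Ndn region, are at 1.89%, against 39.1% outside.

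Outside the Dlk1-Meg3 cluster, 8 of 31 miRNA genes of the neighbourhoods were in any list (25.8%, against 12.9% of annotated miRNA genes). Mir296 near Gnas and Gm23134, in an intron of Blcap opposite to Nnat, were in all 3. Mir335, in an intron of Mest, the paternally expressed hydrolase-fold gene, was in E13.5 KO and E13.5 WT and not in E15.5 KO. Mir483, in an intron of Igf2, and Mir298 near Gnas were in E13.5 WT alone, and Mir3099, in an intron of Usp29, was in E13.5 KO alone. Gm23802 near Mcts2 was in E15.5 KO and E13.5 KO and not in E13.5 WT, and Gm23873 of the Snrpn-Ndn region in E15.5 KO alone. The hosts Mest, Igf2 and Usp29 were in all 3 lists, so host and intronic miRNA gene did not share their pattern in these 3 cases. Blcap and Gm23134 did, both being in all 3. Outside the imprinted clusters, 20 of 730 intronic miRNA genes in a long gene of all 3 lists were themselves in all 3.

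Other genes with reported imprinting, 50 in all, were looked up in the same way. E15.5 KO listed 44, E13.5 KO 46 and E13.5 WT 46, and 44 were in all 3 (88.0%). Among annotated genes, 73.1% of coding and 18.3% of non-coding genes were in all 3. Of the 50, 42 are protein-coding. Between the KO ages 2 of 46 differed (4.35%, against 7.57% of coding genes and 17.8% of all genes), and between the genotypes at E13.5 0 of 46 (against 6.08% and 16.3%). Klf14, a Krüppel-like factor near Mest, and Htr2a, a serotonin receptor, were in E13.5 KO and E13.5 WT and not in E15.5 KO. Zim2, Zim3 and Zfp264 of the Peg3 region and Snurf were in none. The 4 covered by E15.5 WT (Ins2, Th, Tspan32 and Slc22a18, all between H19 and Phlda2) were in all 4 lists.

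Of 32 genes that set, protect or read imprints, E15.5 KO listed 28, E13.5 KO 29 and E13.5 WT 31, and 27 were in all 3 (84.4%, against 73.1% of annotated coding genes). Between the KO ages 3 of 30 differed (against 7.57% of coding genes) and between the genotypes at E13.5 2 of 31 (6.45%, against 6.08%), shares near those of coding genes at large. The maintenance methyltransferase Dnmt1 and its partner Uhrf1, Dnmt3a and Dnmt3b, Zfp57, Zfp445 and their corepressor Trim28, and the insulator factor Ctcf were in every complete list. Dnmt3l, the germline cofactor of DNA methylation, was in E13.5 KO and E13.5 WT and neither in E15.5 KO nor in E15.5 WT. Dppa3, which protects methylation in the zygote, was in E13.5 KO and E13.5 WT and not in E15.5 KO. Ctcfl, a testis paralogue of Ctcf, was in E13.5 WT alone, and Nlrp5, an oocyte maternal-effect gene, in E15.5 KO and E13.5 WT. Zfp42, a marker of pluripotent cells, was in none.

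The remaining members are single loci and were in E15.5 KO, E13.5 KO and E13.5 WT. Slc38a4 (chromosome 15, 96994820 to 97055956) encodes an amino acid transporter, Impact a regulator of the kinase that senses amino acid shortage, and Nnat (chromosome 2, 157560078 to 157562522) a small membrane proteolipid. Zrsr1 and Nap1l5 are retrogenes related to a splicing factor and to a nucleosome assembly protein. The coding members, which are themselves among the coding genes in all 3 lists, were near that group in size. The part of size in their listing was not tested. The median exonic length of the coding members was 4560 bases, against 4220 bases for the 16040 coding genes in all 3 lists. It was 2280 bases for coding genes in 1 or 2 lists and 1800 bases for those in none. This length pools all annotated transcripts of a gene. Their median number was 5 for the members and for coding genes in all 3 lists, and 2 for the other groups.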

How the data were processed

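The values used are other than measurements: per the file contents deposited by the authors, each file holds an Ensembl gene identifier and a symbol per line, with no header, count or score, so a gene is listed or not listed. Per the submitters' processing notes, Seurat and the build mm10 were used; how a gene came to be included, with which aligner, annotation release and filters, is not given in the sources used here. Lists can grow with depth and cell number, which are unknown, so this was not tested.

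Groups came from the sample titles. Members were matched by symbol, and positions and gene types came from GENCODE M21 on GRCm38 (48 listed identifiers had no match). Genes listed in 1 or both of 2 libraries were counted with Python 3.11.15 and pandas 2.3.3 over the genes in either, and the counting was tested on simulated lists. Neighbours were annotated genes within 100 kb of a cluster. Small RNA genes were placed by the exons of longer genes on their strand. Start windows of 300 bases and mature miRNA sequences were RefSeq's, matched by symbol. Named were all members, the differing or absent genes of the other lists, and up to 10 differing neighbours per comparison, coding first and longest first; miRNA and snoRNA genes beyond these were chosen after their values were seen. The members and lists were chosen with earlier results of these data known.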

Additional observations from a re-analysis of the deposited data

How the results depend on the processing

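Matching members by gene identifier or merging number suffixes left 40 of 40 members in each complete list and 0 differing, and changed neither the other imprinted genes nor the regulators. Without the 8 members of tissue-restricted imprinting 32 of 32 were listed, and with coding genes only 34 of 34. The counts of differing neighbours followed the genes included. With 500 kb on each side they were 86 between E15.5 KO and E13.5 KO and 79 between E13.5 KO and E13.5 WT, instead of 40 and 40, but the share that differed stayed at 23.2% and 21.0%, against 22.9% and 22.3%. With no added flank, 30 and 27 genes differed (29.7% and 26.2%). Coding neighbours alone gave 4 and 1. Among all genes listed in either library, 17.8% and 16.3% differed. Of the 552 neighbours with 100 kb on each side, 482 were non-coding, and non-coding genes at large differed in 34.4% and 33.5% of cases. No paired analysis was possible because no group holds more than 1 library, and for the same reason no replicate could be left out. Depth is unknown, so an unlisted gene may have been missed.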
